A study of Arabidopsis thaliana with 4 samples.

Results

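The XTH family of Arabidopsis thaliana encodes xyloglucan endotransglucosylase/hydrolases, and its 33 members, XTH1 to XTH33, were taken by locus identifier from a table of 27322 usable gene models. XTH22 is also known as TCH4. Every one of the 33 loci was in the table, so the description covers the whole family. RNA came from shoot apices of the inflorescence of plants grown for 6 weeks, from which older flowers had been removed. Plants of both genotypes were grown in a greenhouse at 22 °C with 16 h of light and 8 h of dark. The control group was the wild type (WT), accession Col-0, and the other group was the double mutant mp319 clv3-7 (mp clv3), which carries mutations in MP, an auxin response factor gene, and in CLV3, the gene of a peptide that limits the stem cell pool of the shoot meristem. The labels give 2 biological replicates for each genotype. For each genotype the table gives 1 read number and 1 RPKM (reads per kilobase of the gene and per unit of library size, a level that can be compared between genes) per gene. No source says if this value joins the replicates or comes from 1 of them, so each value is the authors' value for a genotype and no difference has a replicate check.

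Xyloglucan is a hemicellulose that coats and tethers cellulose microfibrils in the primary cell wall of dicots. XTH enzymes are secreted proteins that cut a xyloglucan chain and join the cut end to another chain, or, in a few members, to water, so that chains are exchanged or shortened while the wall is under tension. They are known for their part in cell expansion, in wall assembly after cell division and in the response to touch and hormones. The family has long been divided into subgroup I (XTH1 to XTH11), subgroup II (XTH12 to XTH26) and subgroup III (XTH27 to XTH33).

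The reads over all models came to 103347441 in the mutant and 101878433 in WT. MP was at 14.5 RPKM in the mutant and 46.1 RPKM in WT, and CLV3 at 15.8 and 0.0251 RPKM. These levels do not check the mutations, since no source used here places the lesions. All 4 markers of the shoot meristem were present in both genotypes. STM (217 RPKM in the mutant, 68.8 in WT), WUS (21.8 and 2.34 RPKM) and CLV1 (41.3 and 16.3 RPKM) were higher in mp clv3, while KNAT1 was lower (11.3 and 44.8 RPKM). Of the 5 measured floral organ markers, all were lower in mp clv3, where they summed to 1.99 RPKM against 433 RPKM in WT. All 6 anther tapetum markers were lower as well, at 13.5 against 652 RPKM, with MS2 at 0 reads in the mutant and LAP6 giving most of what remained. Epidermis markers summed to 307 against 934 RPKM (all 3 lower, 2 of them at least 2-fold). Vascular markers summed to 37.6 against 112 RPKM (all 4 lower, 3 of them at least 2-fold). Of all models over 6 reads in either genotype, 23.3% were called lower by the 2-fold rule given below. Of 4 root markers, PLT1 and COBL9 had no reads in either genotype and EXP7 had 0 in the mutant and 2 in WT. WOX5, a homeobox gene of the root stem cell niche, was higher, with 149 reads (1.92 RPKM) in the mutant and 18 reads (0.236 RPKM) in WT, 8.16-fold (4.10 to 18.7). Whole apices were measured, so fewer cells of a type and less RNA per cell cannot be told apart, and the part of these marker differences in the XTH values was not tested.

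The catalytic site of these enzymes is encoded by a short conserved stretch that holds the pair of glutamate codons used in catalysis. It is shown for 8 members on which the results below turn, so that a reader can see how alike genes with opposite differences are. Sequences are spliced coding sequence read from the RefSeq genome and annotation (TAIR10.1), with positions on that build. Capitals mark the 27 bases of the conserved stretch, and the lower-case letters are the 15 bases on either side.
XTH9, chr4:1416523-1416579, plus strand, exon 3: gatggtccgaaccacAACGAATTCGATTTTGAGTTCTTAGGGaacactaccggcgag
XTH4, chr2:2764478-2764534, plus strand, exon 3: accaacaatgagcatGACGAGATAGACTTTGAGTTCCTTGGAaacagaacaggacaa
XTH6, chr5:26299601-26299657, plus strand, exon 3: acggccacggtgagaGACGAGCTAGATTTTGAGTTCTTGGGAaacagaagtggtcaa
XTH16, chr3:8550583-8550639, plus strand, exon 2: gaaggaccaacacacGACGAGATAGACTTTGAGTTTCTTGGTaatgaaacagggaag
XTH18, chr4:14826554-14826610, minus strand, exon 2: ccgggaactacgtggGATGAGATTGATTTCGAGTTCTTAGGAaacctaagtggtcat
XTH22, chr5:23307824-23307880, minus strand, exon 2: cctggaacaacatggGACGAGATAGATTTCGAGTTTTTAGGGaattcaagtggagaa
XTH24, chr4:14820027-14820083, minus strand, exon 2: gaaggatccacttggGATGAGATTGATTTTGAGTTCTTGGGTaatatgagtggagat
XTH32, chr2:15474058-15474114, minus strand, exon 3: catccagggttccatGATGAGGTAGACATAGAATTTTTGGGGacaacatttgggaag
The stretch was found in 32 of the 33 members by a search that required both glutamates, and the search did not match in XTH11. In 22 of the 32 members the 27 bases translate to the same residues, although no pair of the 32 shares the same bases. XTH4, XTH16, XTH18, XTH22 and XTH24 are among those 22, XTH6 differs from them at 1 residue, and XTH9 and XTH32 each differ at 2.

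In WT, XTH9 (AT4G03210) dominated the family. XTH9 is known to be strongly expressed in inflorescence apices, where its expression has been linked to cell elongation. The gene lies on chromosome 4, from 1415617 to 1417444 on the plus strand, with 4 exons. It was at 1405 RPKM in WT, from 153631 reads, and took 72.6% of the RPKM summed over the family. By RPKM it held rank 23 among all gene models in WT and rank 347 in mp clv3. The next members were XTH4 at 139 RPKM and XTH16 at 134 RPKM, whose 95% counting intervals (136 to 142 and 131 to 137 RPKM) overlapped. XTH6 (82.9 RPKM), XTH28 (45.9 RPKM), XTH32 (36.6 RPKM), XTH22 (29.2 RPKM) and XTH15 (24.9 RPKM) followed in an order in which no neighbours overlapped by counting error. These intervals, and all those below, cover counting error only and say nothing of the spread between plants.

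In mp clv3 the family was spread over more members. XTH9 remained the highest, at 283 RPKM from 31337 reads, but took 27.5% of the family's summed RPKM. XTH4 was next at 199 RPKM (19.3% of the family), followed by XTH22 at 162 RPKM (15.8%) and XTH32 at 74.5 RPKM (7.24%). XTH28 (57.1 RPKM), XTH24 (55.9 RPKM) and XTH18 (54.3 RPKM) came after these, and XTH28 and XTH24, as well as XTH24 and XTH18, overlapped by counting error. XTH22 had been seventh in WT, XTH24 had been at position 12 and XTH18 at position 19.

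**Figure D1:**
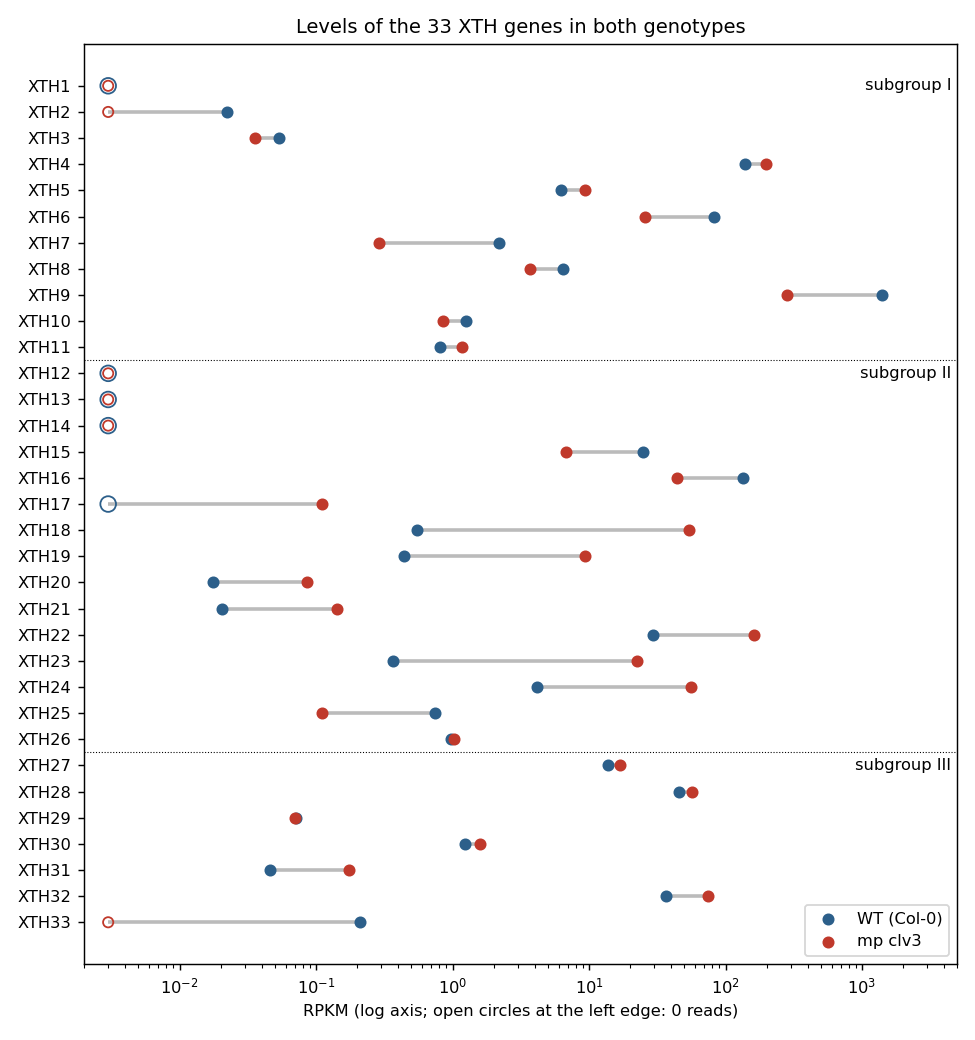
RPKM of each of the 33 XTH genes (log axis) in WT (blue) and mp clv3 (red), 1 value per genotype; open circles at the left edge mark 0 reads. XTH9 is the highest point in both genotypes, at 1405 and 283 RPKM, and the widest gaps are in subgroup II, where XTH18 goes from 0.553 to 54.3 RPKM.

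The family as a whole was lower in mp clv3, and this rested on XTH9. The 33 members summed to 1029 RPKM in the mutant and 1937 RPKM in WT, which is 1.88-fold lower in the mutant. Their share of all reads was 0.117% (exact 95% interval 0.116% to 0.118%) in the mutant and 0.213% (0.211% to 0.214%) in WT. Without XTH9, the other members summed to 746 RPKM in the mutant and 532 RPKM in WT, which is 1.40-fold higher in the mutant. Subgroup I, which holds XTH9, fell from 84.9% of the family's RPKM in WT to 50.8% in mp clv3. It went from 1644 to 522 RPKM, and XTH9 within it from 1405 to 283 RPKM. Subgroup II went from 195 RPKM in WT to 356 RPKM in mp clv3, where it was 34.6% of the family, and subgroup III from 97.9 to 150.2 RPKM.

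**Figure D2:**
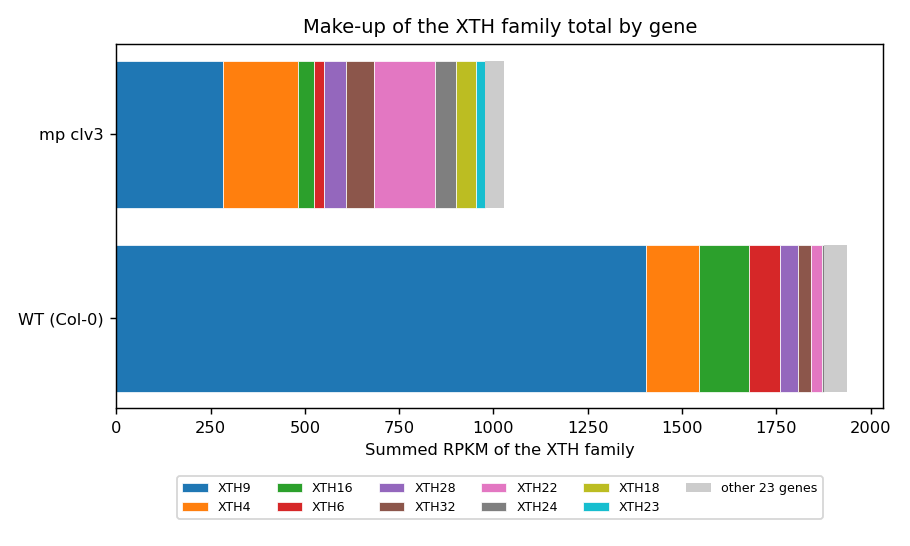
Summed RPKM of the XTH family in WT and mp clv3, with each coloured section the RPKM of 1 gene and the grey section the other 23 genes. The bar for mp clv3 ends at 1029 RPKM and that for WT at 1937 RPKM, and the XTH9 section shrinks from 1405 to 283 RPKM.

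Members were called higher or lower where the ratio of mp clv3 to WT was at least 2-fold and the FDR in the authors' deposited table was under 0.05. The ratio was taken from reads divided by the genotype's total, with 0 reads set at a floor of 6 reads (3 read pairs). Read numbers above 0 but under the floor were left as they were. XTH20 (10 reads in the mutant, 2 in WT) was therefore called higher, while XTH17 (12 and 0) was not. Of the 33 members, 27 had more than 6 reads in either genotype, and of these 9 were called higher, 7 lower and 11 neither. Among all 23060 gene models over that floor, 11.3% were called higher and 23.3% lower. The median log2 ratio was 0.37 over the 27 members and -0.15 over all models. Of the 15 members with an RPKM of at least 5 in either genotype, 6 were called higher and 4 lower, where 10.2% and 14.5% of all models at that level were. The deposited FDR is under 0.05 for 74.8% of all models and its test is not stated, so the size of the ratio is what separates the called members from the rest.

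The calls were also counted by subgroup, beside 11.3% of all models over the floor called higher and 23.3% called lower. In subgroup II, 7 of the 12 members over the floor were called higher and 3 lower (median log2 ratio 2.39). In subgroup I, none of 8 was called higher and 3 were called lower, with a median of -0.68. In subgroup III, 2 of 7 were called higher and 1 lower, with a median of 0.31. Some of these members passed the floor through 1 genotype only. In subgroup II these were XTH20 (10 reads in the mutant, 2 in WT) and XTH21 (14 and 2), called higher, and XTH17 (12 and 0), called neither. In subgroup III they were XTH31 (23 and 6), called higher, and XTH33 (0 and 23), called lower. The counts and medians include them. With so few members, the counts of subgroup I and the lower counts of subgroups II and III lie near the shares over all models. No test of the differences between subgroups could be made.

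The largest well-measured ratios in the higher direction belonged to XTH18, XTH23, XTH19 and XTH24, all of subgroup II. XTH18 (AT4G30280), known mainly from roots, was at 54.3 RPKM (5876 reads) in the mutant and 0.553 RPKM (59 reads) in WT. That is a ratio of 98.2-fold (67.5 to 143), and 47 of the 20465 models with more than 6 reads in both genotypes had a larger ratio in that direction. XTH19 (AT4G30290), a close relative that is likewise best known from roots, was at 9.35 RPKM (1089 reads) in the mutant and 0.444 RPKM (51 reads) in WT, 21.0-fold higher (13.9 to 31.9). Both genes went from levels near the bottom of the measured members in WT to clearly measured levels in the mutant.

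XTH23 (AT4G25810), the nearest relative of XTH22, was at 22.4 RPKM (2506 reads) in the mutant and 0.363 RPKM (40 reads) in WT, a ratio of 61.8-fold (39.8 to 101). XTH24 (AT4G30270), first isolated as the meristem-expressed gene MERI-5, was at 55.9 RPKM (6970 reads) against 4.17 RPKM (513 reads), 13.4-fold higher (11.8 to 15.2). XTH22 (AT5G57560), the touch-induced gene TCH4, which also responds to auxin and brassinosteroid, was at 162 RPKM (17897 reads) against 29.2 RPKM (3179 reads), 5.55-fold higher (5.26 to 5.86). XTH22 differed from the others in that it was already a well-expressed member in WT.

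XTH32 was the called member of subgroup III with the highest level. Together with XTH31 it belongs to the branch of the family for which hydrolase activity has been reported. XTH32 (AT2G36870) was at 74.5 RPKM (9046 reads) in the mutant and 36.6 RPKM (4379 reads) in WT. Its ratio of 2.04-fold (1.93 to 2.14) lies just past the 2-fold threshold, and the interval spans it. XTH31, XTH20 and XTH21 were also called higher, but at levels under 1 RPKM, with 23, 10 and 14 reads in the mutant where WT had 6, 2 and 2. The intervals of XTH20 (0.552 to 233-fold) and XTH21 (0.887 to 311-fold) include no difference, so 7 of the 9 members called higher had an interval wholly above 1.

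Among the members called lower, XTH9 had the largest difference in level. It was at 283 RPKM in the mutant and 1405 RPKM in WT, 4.97-fold lower (4.89 to 5.06), so its level fell by 1123 RPKM. The 7 members called lower summed to 359 RPKM in the mutant and 1650 RPKM in WT. The 9 called higher summed to 379 and 71.4 RPKM, so the gain in these did not match the loss in the former on the RPKM scale.

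XTH16 and XTH15, a pair of closely related subgroup II genes, were both lower. XTH16 (AT3G23730) was at 44.1 RPKM (4900 reads) in the mutant and 134 RPKM (14629 reads) in WT, 3.03-fold lower (2.89 to 3.17). XTH15 (AT4G14130), known for its induction in shade-avoiding petioles, was at 6.75 RPKM (743 reads) against 24.9 RPKM (2702 reads), 3.69-fold lower (3.28 to 4.14). The annotation of XTH15 shares 382 bases with AT4G14120, which lies on the other strand (428 reads in the mutant, 914 in WT). The use of strand in counting is not stated.

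XTH6 and XTH7, closely related subgroup I genes, were both lower too. XTH6 (AT5G65730) was at 25.5 RPKM (2940 reads) in the mutant and 82.9 RPKM (9414 reads) in WT, 3.25-fold lower (3.06 to 3.45). XTH7 (AT4G37800) was at 0.290 RPKM (34 reads) against 2.18 RPKM (252 reads), 7.52-fold lower (4.51 to 13.3). At lower levels still, XTH25 (AT5G57550) had 12 reads in the mutant and 80 in WT, 6.76-fold lower (2.85 to 19.5). XTH33 (AT1G10550), whose product is known to sit at the plasma membrane, had 0 reads in the mutant and 23 in WT and was at least 3.89-fold lower.

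**Figure D3:**
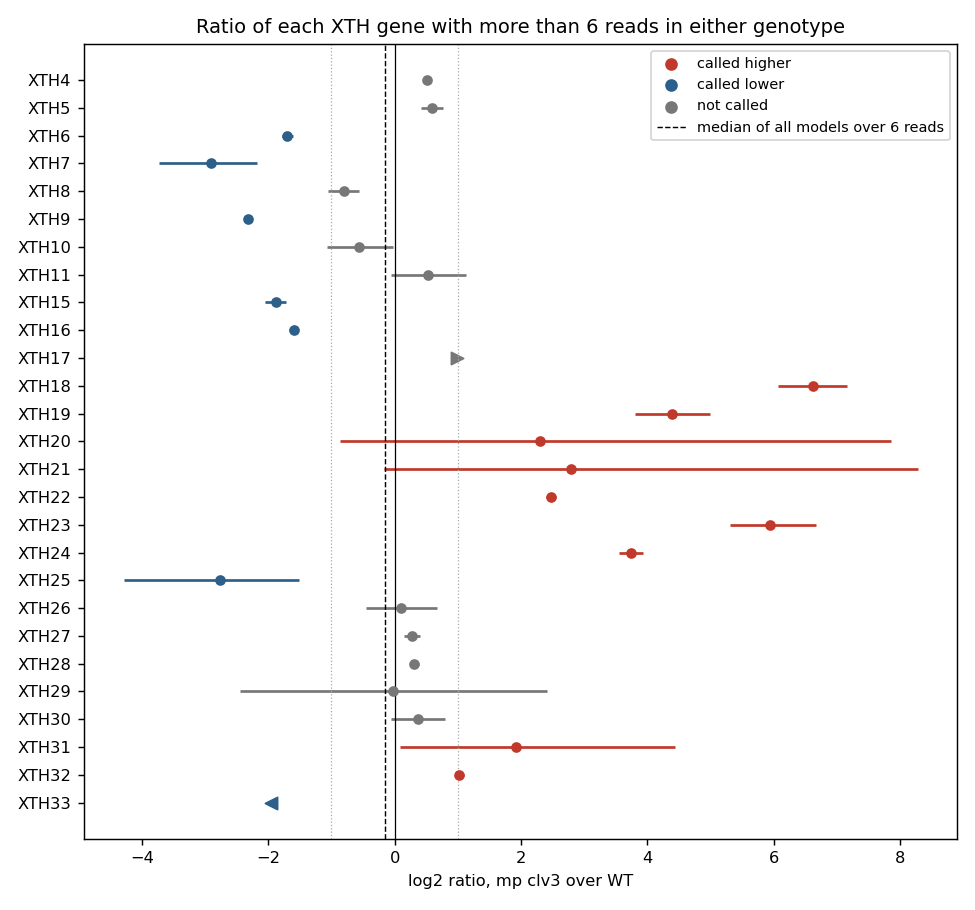
Log2 ratio of mp clv3 over WT for the 27 XTH genes with more than 6 reads in either genotype. Horizontal lines are exact 95% intervals for counting error. Arrowheads mark genes with 0 reads in 1 genotype, where 0 was set at 6 reads and no interval is drawn. Dotted lines mark 2-fold and the dashed line is the median of all models (-0.15). XTH18 (6.62), XTH23 (5.95), XTH19 (4.40) and XTH24 (3.74) lie farthest to the right among genes with narrow intervals, and XTH7 (-2.91), XTH25 (-2.76) and XTH9 (-2.31) farthest to the left.

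Several well-expressed members differed by less than 2-fold. XTH4 (AT2G06850), a gene active in expanding tissue and in secondary growth, was at 199 RPKM in the mutant and 139 RPKM in WT, 1.43-fold higher (1.39 to 1.47). XTH28 (AT1G14720), known for its part in the elongation of stamen filaments, was at 57.1 and 45.9 RPKM, 1.24-fold higher (1.19 to 1.30). Its level was not lower in mp clv3, where the floral organ markers given above summed to 1.99 RPKM. The part of floral tissue in the level of XTH28 was not tested. XTH27 (AT2G01850), known from tracheary elements of leaves, was at 16.8 and 13.8 RPKM, 1.21-fold higher (1.11 to 1.32). XTH5 (AT5G13870) was at 9.42 and 6.25 RPKM, and XTH8 (AT1G11545) at 3.67 and 6.41 RPKM, 1.75-fold lower (1.47 to 2.08). The 11 members called neither summed to 290 RPKM in the mutant and 216 RPKM in WT.

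The rest of the family was barely detected. XTH1, XTH12, XTH13 and XTH14 had 0 reads in both genotypes, XTH2 had 0 in the mutant and 2 in WT, and XTH3 (AT3G25050), known for an unusual activity that joins cellulose to xyloglucan, had 4 and 6. No ratio is given for these 6. XTH17 (AT1G65310), a relative of XTH18, had 12 reads in the mutant and 0 in WT. With 0 set at 6 reads it was 1.97-fold higher, a value without an interval and just under the 2-fold threshold. It passed that threshold under both other scalings of the libraries (log2 ratios of 1.07 and 1.08). XTH29 had 8 reads in each genotype. XTH10, XTH11, XTH26 (a root hair gene) and XTH30 lay between 0.804 and 1.59 RPKM in both genotypes, with intervals of the ratio that reached 1 or, for XTH10, came within 1.02-fold of it.

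Calls were set side by side for pairs of nearest relatives. The coding sequences of the 528 pairs of members were 43.9% to 89.4% identical, with a median of 54.6%. In 10 pairs each gene was the other's nearest relative, and in 8 of these both genes were over the floor. The call was the same in all 8 pairs: higher in XTH18 and XTH19 (87.6% identical), XTH22 and XTH23 (79.2%) and XTH31 and XTH32 (64.5%), lower in XTH15 and XTH16 (80.5%) and XTH6 and XTH7 (71.7%), and neither in XTH4 and XTH5, XTH27 and XTH28, and XTH29 and XTH30. This is a description of genes that share descent, not of independent observations. Among all 23060 models over the floor, 15083 were called neither, and how often unrelated genes share a call was not computed. XTH29 (8 reads in each genotype) and XTH31 (23 in the mutant and 6 in WT) were near the floor. Similar sequences can also share reads, and the handling of reads that match more than 1 place is not stated. No pair of members shares an exact run as long as a read of 100 bases. The longest shared run was 68 bases, in XTH18 and XTH19. XTH17, 85.6% identical to XTH18 with a longest run of 47 bases, had 12 reads where XTH18 had 5876. The runs were read from an annotation other than the one used for counting. They do not cover reads placed with mismatches, and the sharing of reads between members was not tested. Outside the reciprocal pairs relatives could differ: XTH25 was lower, while its nearest relative, XTH22 (69.5% identical), was higher. XTH9, which was lower, was 59.2% identical both to XTH22, which was higher, and to XTH7, which was lower.

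The family holds 4 tandem clusters, and members within 1 cluster did not always have the same call. On chromosome 4, XTH24 (14819192 to 14820595), XTH18 (14825757 to 14827211) and XTH19 (14828712 to 14830224) lie in this order on the minus strand within 11033 bases, and all 3 were called higher. These 3 genes summed to 119 RPKM in the mutant and 5.17 RPKM in WT. Of the 4 nearest protein-coding genes beside this cluster, none was called higher, a count near the 11.3% over all models. Of these neighbours, AT4G30300 was under the floor and could not be called. AT4G30260 was at 49.0 RPKM in the mutant and 38.0 RPKM in WT and AT4G30310 at 50.5 and 36.7 RPKM, AT4G30300 had 0 and 3 reads, and AT4G30250 was called lower, at 14.2 and 29.2 RPKM.

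In the cluster on chromosome 5, on the minus strand within 8360 bases, the genes differed from each other. XTH12 (23300321 to 23301689) and XTH13 (23302787 to 23304095) had 0 reads in both genotypes. XTH25 (23304782 to 23306440) was lower and XTH22 (23307006 to 23308680) was higher, and a gap of 565 bases lies between the latter pair. On the plus strand of chromosome 4, XTH23 (13128394 to 13129927) was higher, while XTH14 (13130291 to 13131860) had no reads. A gap of 363 bases lies between XTH23 and XTH14. Beside these clusters some neighbours were called higher too. Before the chromosome 5 cluster, at its XTH12 end, AT5G57510 had 162 reads in the mutant and 13 in WT (log2 ratio 3.62) and AT5G57520 had 60 and 26 (1.19), while AT5G57565 at the XTH22 end was called neither (8.36 and 14.0 RPKM). Next to XTH23, AT4G25800 was at 8.79 and 4.05 RPKM (1.12), whereas AT4G25830 (6.37 and 42.2 RPKM) and AT4G25835 (4.93 and 10.7 RPKM), past XTH14, were called lower. The fourth cluster, XTH1 and XTH2 on chromosome 4, was at or under the floor in both genotypes.

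**Figure D4:**
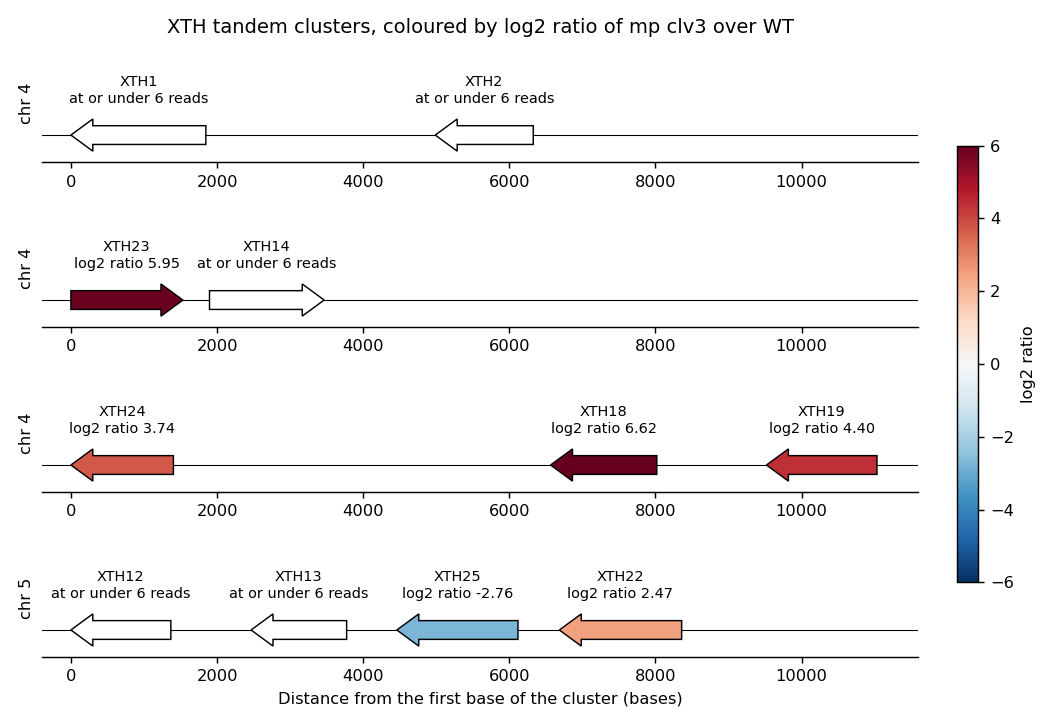
Maps of the 4 XTH tandem clusters drawn to scale by distance from the first base of each, with arrows showing gene direction and colour the log2 ratio of mp clv3 over WT; white arrows are genes at or under 6 reads in both genotypes. XTH24, XTH18 and XTH19 are all red (3.74, 6.62 and 4.40), whereas XTH25 (-2.76) and XTH22 (2.47) lie side by side with opposite colours.

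The 300 bases upstream of each annotated start were searched on both strands for short motifs of hormone response, since MP is an auxin response factor and XTH22 responds to brassinosteroid. The auxin response element TGTCTC was in 3 of the 33 windows (XTH3, XTH6 and XTH24, 9.09%) and in 13.0% of the 27443 windows of all protein-coding genes. The variant TGTCGG was in the window of XTH20 alone, against 4.91% of all windows. The brassinosteroid response element CGTGTG was in the windows of XTH2, XTH8, XTH23 and XTH25 (12.1%, against 6.11% of all), its second form CGTGCG in none (1.78% of all), and the G-box CACGTG in none (7.09% of all). The window of XTH22 held none of these motifs. No motif overlapped another in a member's window. A match describes the letters only.

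Of 15 genes of xyloglucan synthesis, none was called higher and 2 were called lower, with a median log2 ratio of -0.06. Over all models 11.3% were called higher and 23.3% lower, so in lists of this size counts of 0 higher lie near the background. The 2 were XLT2, a galactosyltransferase of the xyloglucan side chain, at 2.95 RPKM in the mutant and 11.4 RPKM in WT, and XXT3, of the xylosyltransferase family, at 1.75 and 5.26 RPKM. None of the 5 genes of xyloglucan trimming was called, and the one with the highest level in WT, XYL1, an alpha-xylosidase, was at 127 RPKM in the mutant and 237 RPKM in WT. None of 9 genes of primary wall cellulose synthesis was called either, with log2 ratios from -0.75 (CESA6, a cellulose synthase subunit) to 0.42 (KOR1, an endoglucanase needed for cellulose synthesis).

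The alpha-expansins are wall-loosening proteins that act without cutting chains. Of 25, 15 were over the floor, none was called higher and 6 were called lower, where 11.3% and 23.3% of all models were, and the median log2 ratio was -0.35. EXPA5 was at 3.22 RPKM in the mutant and 23.1 RPKM in WT, EXPA9 had 176 and 1402 reads, and EXPA8 was at 0.0876 and 4.66 RPKM. EXPA16, at 0.0876 and 1.71 RPKM, was 19.5-fold lower. Among the other TOUCH genes, which encode calmodulin or calmodulin-like proteins and were named with TCH4 for induction by touch, TCH3 was at 981 RPKM (125352 reads) in the mutant and 32.4 RPKM (4079 reads) in WT, 30.3-fold higher. TCH2 was at 42.6 and 73.7 RPKM and TCH1 at 325 and 367 RPKM, and neither was called. So of the 4 genes named for touch, TCH4 and TCH3 were higher and the other two were not. The difference between the XTH genes and these lists could not be tested with 1 column per genotype.

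**Figure D5:**
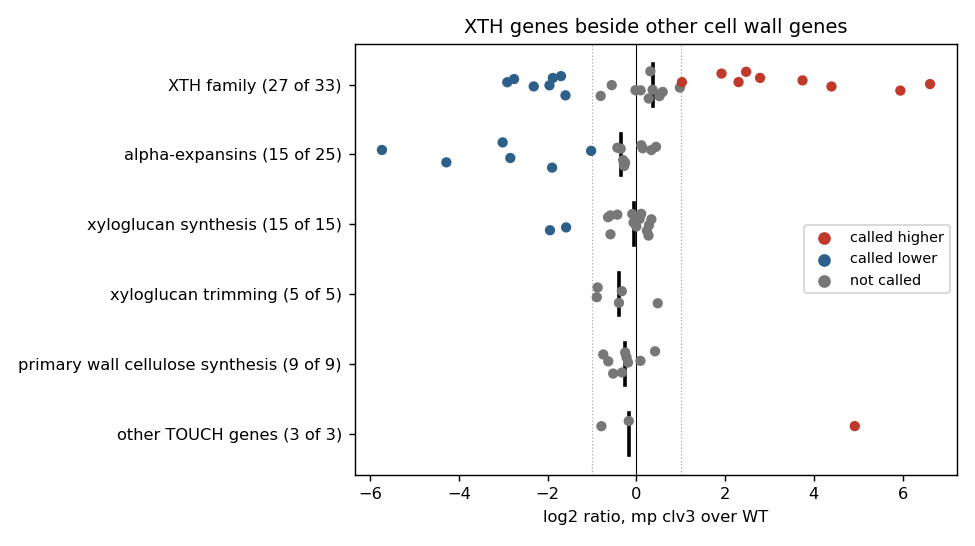
Log2 ratio of mp clv3 over WT for each gene over the floor in the XTH family and in 5 other lists, with the number over the floor and the number listed; black bars are medians and dotted lines mark 2-fold. XTH genes spread on both sides (median 0.37), alpha-expansins called at 2-fold are all lower (median -0.35), and the xyloglucan and cellulose lists stay mostly within the dotted lines.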

How the data were processed

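Strand-specific libraries from poly(A) RNA were sequenced as paired reads of 100 bases, per the labels' protocols. CASAVA 1.7, BWA and TAIR10 are named, without roles, per the submitters' processing notes. The read numbers deposited by the authors were handled as estimated counts, with 0, listed as 0.5, set back to 0. The RPKM and the log2 ratio were deposited by the authors, the latter being the log2 of the RPKM ratio. The deposited FDR is an adjusted p-value of an unstated test. The design was planned for 1 column per genotype. The row of 1 of the 27323 gene models was dropped, as its cells do not line up with the header.

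Ratios were computed from reads over the genotype's total, with exact (Clopper-Pearson) 95% intervals on read pairs, taken as reads divided by 2 and rounded up (scipy 1.17.1), because models with 2 reads outnumbered those with 1 (717 against 99 in mp clv3). No test against replicates could be made. Intervals cover counting error only, since PCR copies are not marked. TMM factors came from edgeR 4.0.16. The computation was tested on simulated data. Gene positions, coding sequences and upstream windows came from RefSeq (TAIR10.1); the spliced length equalled the table's model length for 1 of 33 members, so the annotation is not the one used for counting.

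The members, gene lists, motifs and tests were chosen with earlier results of these data known. Described in full are members called with an RPKM of at least 5, the 5 highest in each genotype and members of their tandem clusters, with others in brief. Of the other lists, up to 4 called genes with the largest ratio were named, or the 1 with the highest RPKM; CESA6, TCH1 and TCH2 were named after their values were seen. Upstream sequences are not reported here.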

Additional observations from a re-analysis of the deposited data

How the results depend on the processing

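No paired analysis was possible because the table has 1 column per genotype with no replicate number, and for the same reason no replicate could be left out. Scaling by TMM or by the median of ratios raised all log2 ratios by 0.09 and 0.10. Under either, 10 XTH members were called higher in place of 9, the tenth being XTH17 (1.07 and 1.08), and 5 alpha-expansins were lower in place of 6. With 0 reads set at 0.5, 10 XTH members were higher as well, and 8 were at an FDR under 0.01. The log2 ratio of the family's summed RPKM was -0.91, and -0.82 and -0.81 under these scalings, and it reversed to 0.49 without XTH9. With a pseudocount of 5 RPKM, 5 XTH members were called higher and 4 lower (9 and 7 without it), 1 xyloglucan synthesis gene was lower (2 without it) and 3 alpha-expansins were lower (6 without it). At a 4-fold threshold 7 XTH members were higher, 3 were lower and 0 xyloglucan synthesis genes were lower. With an RPKM of at least 1 required, 6 XTH members were higher and 5 lower of 20. The XTH median log2 ratio lay between 0.03 and 0.46 under the scalings, pseudocounts, RPKM minimum and zero setting tried. The higher share of called XTH members was 56.2%, and 70.0% at 4-fold. Of all models over the floor, 11.3% were called higher and 23.3% lower, and at 4-fold 5.82% and 12.5%. With a pseudocount of 5 RPKM these shares were 5.03% and 6.35%, and under either scaling 12.3% and 21.7%. In each of these settings more models were called lower than higher, while more XTH members were called higher than lower. This difference was not tested.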
